A study of Mus musculus with 16 samples.

Results

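The 8 libraries described here are the 4 WT p38KO and the 4 WT p38+/+ microglial libraries of a series of 16, chosen by their labels. They ask what loss of p38α does to microglial RNA in mice without amyloid. In the whole series, RNA was sequenced from microglia of 16 mice at about 11 months of age, 4 in each of 4 groups, and the other 8 libraries came from APPswe/PS1dE9 (AD) mice with and without the same deletion. All 8 WT mice were APPswe/PS1dE9-/- and p38fl/fl on C57BL/6J, and all ate 400 ppm tamoxifen for 4 weeks from 5 months of age, followed by normal chow. The WT p38KO mice were Cx3cr1-creERT2+/- and the WT p38+/+ mice Cx3cr1-creERT2-/-, so the controls carried the floxed alleles and had tamoxifen but no Cre. The AD groups used for comparison were APPswe/PS1dE9+/-, p38fl/fl and either Cx3cr1-creERT2-/- (AD p38+/+) or Cx3cr1-creERT2+/- (AD p38KO), with the same diet and age. Each library came from about 10000 live cells of 1 hemisphere sorted for CD11b and P2ry12. Of the WT mice, 2 of 4 p38KO and 1 of 4 p38+/+ were labelled female. The study took the mice with the highest RNA integrity from a larger set.

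The Cre of this line is driven from the Cx3cr1 locus and disrupts the allele it sits in, so each WT p38KO mouse also had 1 working copy of Cx3cr1 in place of a pair, and carried Cre and the stretch of chromosome 9 around it. Effects of p38α loss, of Cre with tamoxifen, and of the missing Cx3cr1 copy therefore cannot be told apart in this design.

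p38α, the product of Mapk14, is a stress-activated MAP kinase. Kinases such as MKK3 and MKK6 activate it, it phosphorylates kinases such as MK2 and MSK1 and several transcription factors, and phosphatases of the DUSP family switch it off. In microglia and other macrophages it is best known for its part in making inflammatory cytokines, in good measure by making their mRNAs more stable. CX3CR1 is the microglial receptor for the neuronal chemokine fractalkine.

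The floxed segment is exon 1 of Mapk14, which in the annotation (GENCODE M21, GRCm38) lies at chr17:28691342-28691855 on the plus strand and spans 514 bases. Its last part is coding and holds the start codon of isoform 1, the long protein of 360 codons spread over 12 exons. They are shown because the isoform 1 transcript, which holds them, and the shorter transcript, which does not, changed in opposite directions. A shorter reading frame of 283 codons, used by ENSMUST00000114752, starts at the methionine codon 78 of isoform 1, stays in frame and is identical from there on. The first line below gives the coding part of exon 1 (chr17:28691740-28691855, plus strand), and the second gives 63 bases of joined exons from codon 68 on, with the start codon of each reading frame in capitals.
Mapk14 exon 1, coding part: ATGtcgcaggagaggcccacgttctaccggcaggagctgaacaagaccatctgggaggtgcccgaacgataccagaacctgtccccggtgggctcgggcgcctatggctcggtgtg
Mapk14 around the later start codon: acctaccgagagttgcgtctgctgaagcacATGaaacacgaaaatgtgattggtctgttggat

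The isoform 1 transcript fell to below the counting floor in all 4 WT p38KO mice. ENSMUST00000062694, which begins with exon 1, was 66.0, 82.6, 78.7 and 47.1 CPM (assigned reads of a library scaled to a total of 1e+06) in WT p38+/+ mice 1 to 4. It was 0.0794, 0.214, 0.0589 and 0.0891 CPM in WT p38KO mice 1 to 4. The groups were far apart, and all 4 p38KO values lay under the 0.183 to 0.244 CPM that 3 reads make in these libraries. Set against the floor of the shallowest p38KO library, the mean of the p38+/+ mice was at least 281-fold higher (adjusted p = 2.6e-11, limma with Benjamini-Hochberg adjustment over 29870 transcripts).

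The shorter transcript, which starts downstream of exon 1, was higher in the same mice. ENSMUST00000114752 was 74.5, 97.2, 82.2 and 98.7 CPM in WT p38+/+ mice 1 to 4 and 129.6, 159.7, 160.2 and 148.6 CPM in WT p38KO mice 1 to 4. Every p38KO mouse lay above every p38+/+ mouse. It rose by a log2 fold change of 0.76 (SE 0.126; adjusted p = 0.0472 by limma), a call close to the threshold that was lost in 13 of the 16 fits that left out 1 library. Per kilobase of transcript, isoform 1 went from 35.3% to 0.0615% of all Mapk14 RNA, and the shorter transcript from 51.1% to 93.8%.

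Of the 5 other annotated Mapk14 transcripts, 4 hold all the coding bases of exon 1, and they did not all go the same way. ENSMUST00000004990 was 19.1, 20.9, 17.2 and 12.4 CPM in p38+/+ and 4.13, 3.62, 2.80 and 4.78 CPM in p38KO mice (log2 fold change -2.04, adjusted p = 0.799 by limma). ENSMUST00000114754 was 3.71, 5.8, 3.64 and 1.58 CPM against 0.83, 0.625, 0.796 and 1.20 CPM (log2 fold change -1.53, adjusted p = 0.522 by limma). In neither transcript did the groups overlap, although neither passed the adjusted test. The first of these did pass it with only the 8 WT libraries (adjusted p = 0.0478 by limma) and without AD p38KO mouse 4 (adjusted p = 0.0139), alone or with AD p38KO mouse 1. ENSMUST00000233811, annotated for nonsense-mediated decay, also begins with exon 1, and yet it was 1.79, 2.14, 1.29 and 1.17 CPM in p38+/+ and 3.40, 4.12, 3.26 and 4.92 CPM in p38KO mice (log2 fold change 1.09, adjusted p = 0.854 by limma). The last pair, ENSMUST00000114758 and ENSMUST00000151613, stayed at or below about 1 CPM and were not tested.

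The 5 transcripts with the coding part of exon 1 summed to 91.7 ± 21 CPM in p38+/+ mice, and with p38KO to 9.01 ± 1.6 CPM, a 10.2-fold difference (SD, n = 4 each, p = 0.0286, exact permutation test, two-sided). Over the 2 transcripts without exon 1 it was 88.5 ± 11.9 against 149.7 ± 14.4 CPM (SD, n = 4 each, p = 0.0286, exact permutation test). A p of 0.0286 is the smallest that 4 mice against 4 can give. The whole gene hardly showed the deletion. Mapk14 was 165.7, 210.2, 183.3 and 161.8 CPM in p38+/+ and 138.1, 168.6, 168.0 and 160.1 CPM in p38KO mice, and these ranges overlapped. Its log2 fold change was -0.18 with a 95% interval of -0.40 to 0.04, and the p38KO mean was 88% of the p38+/+ mean. Reads on exon 1 itself were not counted here. Whether a shorter protein is made was not measured, and reads are shared out between transcripts of one gene by the authors' software, so levels of single transcripts are estimates.

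**Figure D1:**
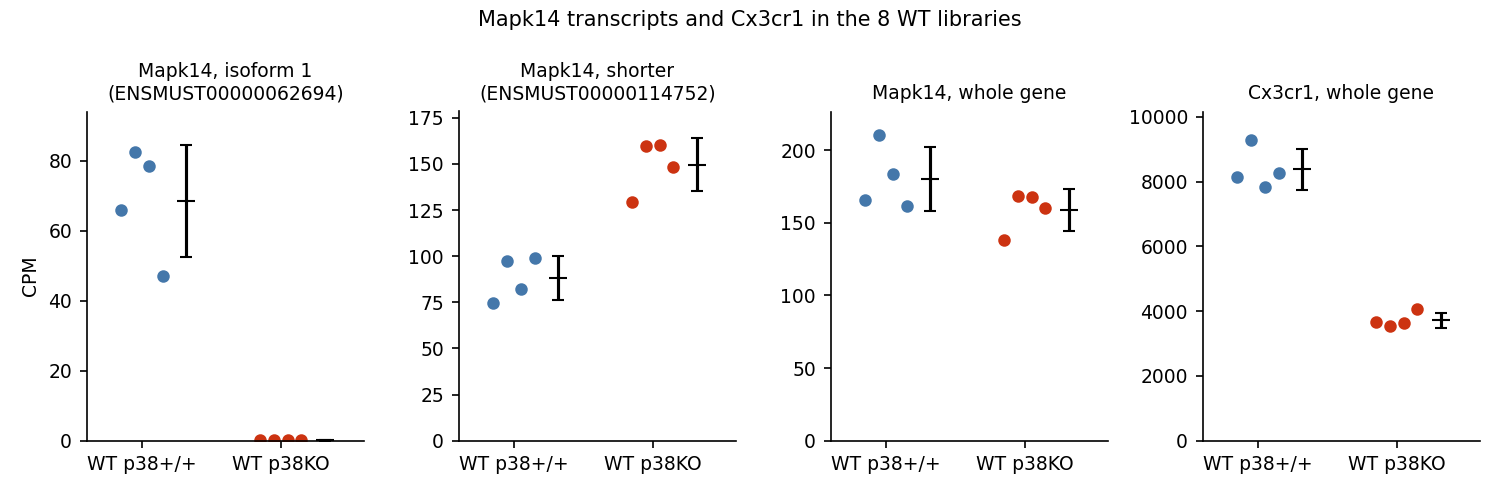
CPM of the Mapk14 isoform 1 transcript, the shorter Mapk14 transcript, all of Mapk14 and all of Cx3cr1 in each WT mouse (blue p38+/+, red p38KO; bars show mean and SD, n = 4 each; each panel starts at 0). The p38KO mice lie near 0 for isoform 1, above all p38+/+ mice for the shorter transcript, at 138.1 to 168.6 CPM against 161.8 to 210.2 CPM for the whole Mapk14 gene, and between 3553 and 4061 CPM for Cx3cr1 against 7842 to 9296 CPM in p38+/+ mice.

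The libraries were alike in depth and in their microglial markers. Depth, read from the smallest step between values, was 12.3 to 16.4 reads for each CPM. Csf1r (16196 to 20655 CPM), P2ry12 (6948 to 10100 CPM) and Tmem119 (6141 to 7293 CPM) were high in all 8 libraries. Neuronal Snap25 reached at most 2.12 CPM, endothelial Cldn5 0.257 CPM and T cell Cd3e 0.407 CPM. Not all markers of other cells were so low. Summed over each list, astrocyte markers lay at 187.9 to 295.1 CPM in the 8 libraries, and lymphocyte and NK cell markers at 471.6 to 831.4 CPM. Oligodendrocyte Mbp lay at 57.8 to 96.3 CPM and endothelial Pecam1 at 26.1 to 45.5 CPM. Macrophage Mrc1 lay at 4.69 to 34.6 CPM and monocyte Ccr2 at 3.25 to 14.5 CPM. The haemoglobin genes Hbb-bs and Hba-a1 stood at 149 and 78.2 CPM in WT p38KO mouse 3 and at 13.9 and 10.4 CPM in p38KO mouse 4, and at 1.33 CPM or less in the other 6 libraries. The Y-linked gene Eif2s3y was at 0 in the 3 libraries labelled female and at 21 CPM or more in the other 5. Genes detected numbered 17392 to 17636 in p38KO and 16954 to 17898 in p38+/+ libraries (p = 0.257, exact permutation test, two-sided). The libraries are of separate mice, so each p-value measures the spread between mice. In sorted bulk RNA, fewer cells of a type and less RNA per cell cannot be told apart.

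Across the transcriptome, 1 gene changed with p38KO in WT microglia. Of 20267 genes in the table, 13027 reached 1 CPM in at least 4 of the 8 libraries and were tested, and 7240 were set aside. Of those tested, 0.00768% passed an adjusted p of 0.05 in limma, which is Cx3cr1 alone, and the next smallest adjusted p was 0.99992. At an unadjusted p under 0.05 there were 455 genes, or 3.49% (251 higher, 1.93%, and 204 lower, 1.57%). The groups of 4 did not overlap in 360 genes, or 2.76%. The median log2 fold change over all genes was 0.01, with 52.7% of genes above 0, and the median SE of a fold change was 0.240, so that small differences in most genes could not have been detected with 4 mice a group.

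Cx3cr1 was 8130, 9296, 7842 and 8275 CPM in WT p38+/+ mice 1 to 4. It was 3650, 3553, 3618 and 4061 CPM in WT p38KO mice 1 to 4. The 2 groups were tight and wide apart, with p38KO mice at 44.4% of the p38+/+ mean. The gene fell by 1.17 on the log2 scale (SE 0.0936; adjusted p = 4.8e-06, limma), and by 1.08 in AD mice, a difference between backgrounds that did not pass (unadjusted p = 0.504 for the interaction by limma). Its main transcript, ENSMUST00000177637, fell likewise, from 7252, 8188, 6944 and 7594 CPM to 3166, 3116, 3149 and 3535 CPM (log2 fold change -1.21, adjusted p = 7.7e-07 by limma), and made up 89.4% of the gene's reads in p38+/+ and 87.1% in p38KO mice.

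**Figure D2:**
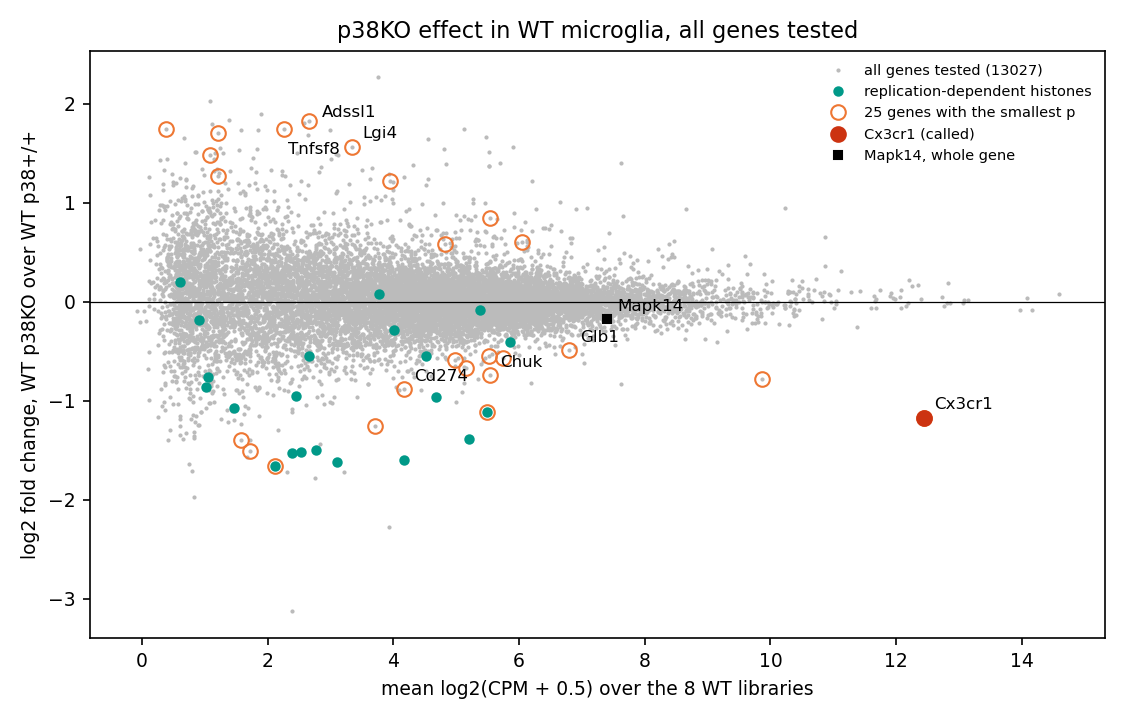
Log2 fold change (WT p38KO over WT p38+/+) of the 13027 genes tested against their mean log2(CPM + 0.5) over the 8 libraries. Cx3cr1 (log2 fold change -1.17), the called gene, stands apart at high expression, and most replication-dependent histone genes lie below 0 while Mapk14 as a whole lies at -0.18.

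Genes close to Cx3cr1 on chromosome 9 are of interest because WT p38KO and WT p38+/+ mice differ there by design. Within 1 Mb of its start, 21 genes were tested and 2 had an unadjusted p under 0.05. The other one was Gm33858 (chr9:120068996-120070622, plus strand), an antisense gene that overlaps the start of Cx3cr1 on the minus strand. Gm33858 was 63.7, 57.4, 54.2 and 39.9 CPM in p38+/+ and 29.6, 29.5, 31.1 and 32.4 CPM in p38KO mice, without overlap (log2 fold change -0.78, and -0.72 in AD mice). Whether reads were counted by strand is not given in the sources used here, so reads of Gm33858 and of Cx3cr1 cannot be told apart. None of the other 19 genes in this window, among them Myd88, the adaptor of toll-like receptors, at a log2 fold change of -0.05, and Ctnnb1, which encodes β-catenin, at -0.10, had an unadjusted p under 0.05.

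Within 10 Mb, 8 of the genes tested had an unadjusted p under 0.05, 7 of them lower. Leaving out Cx3cr1 itself, these were 6.60% of the genes there, against 19 of 604 (3.15%) on the rest of chromosome 9 and 3.49% of all genes; how far the flanking chromosome takes part was not tested. Ccr1l1, a chemokine receptor-like gene, was lower, very narrowly without overlap, at 3.70, 4.56, 5.92 and 5.59 CPM against 3.66, 3.32, 1.01 and 0.215 CPM (log2 fold change -1.40). Its log2 fold change ran from -1.74 to -0.90 when single libraries were left out.

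On the other side of Cx3cr1 lie Glb1, the lysosomal β-galactosidase, and Crtap, which takes part in collagen modification, both about 5.7 Mb away. Glb1 was 105.8, 138.3, 142.9 and 143.2 CPM in p38+/+ and 110.2, 87.4, 97 and 82.5 CPM in p38KO mice, and p38+/+ mouse 1 fell among the p38KO values. Crtap, the 1 gene higher among these 8, was 43.8, 26.5, 33.7 and 34.1 CPM against 61.0, 67.1, 61.4 and 56.5 CPM, without overlap. Their log2 fold changes were -0.49 and 0.84, with unadjusted p-values of 0.00092 and 0.0014 by limma, and in AD mice -0.20 and 0.49. Cmtm6, which keeps PD-L1 at the cell surface, had a log2 fold change of -0.25 and the unnamed gene 5830462I19Rik one of -0.70, both without overlap.

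**Figure D3:**
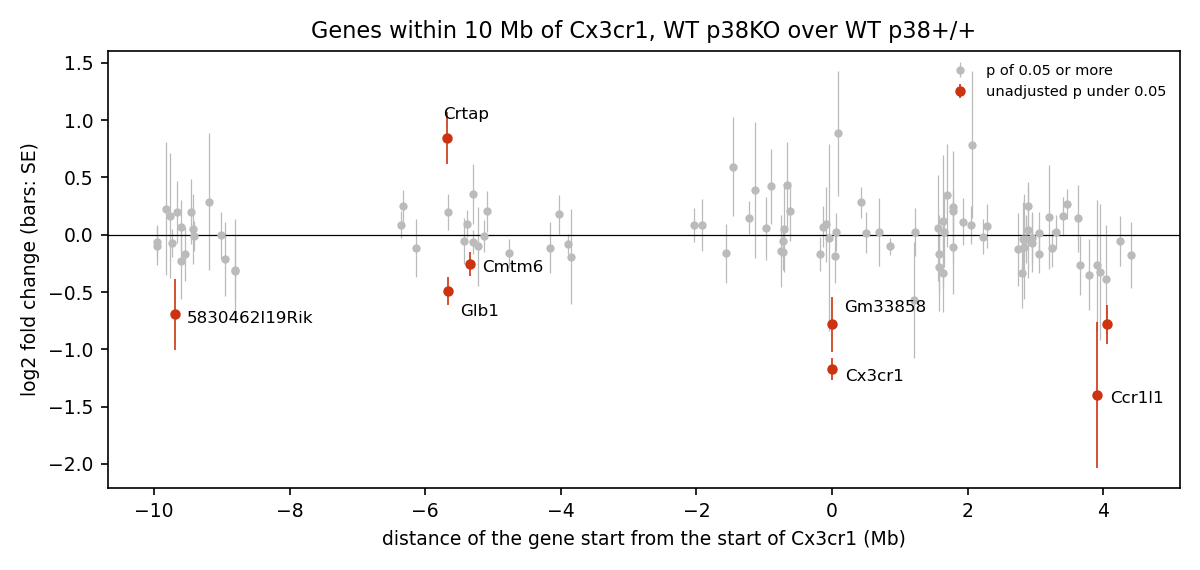
Log2 fold change with its SE (WT p38KO over WT p38+/+) of the genes tested within 10 Mb of Cx3cr1, against the distance of each gene's start in Mb. The 8 genes in red have an unadjusted p under 0.05, and Crtap is the one of them above 0.

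Of 29870 transcripts tested, 7 changed (0.0234%; 4.27% had an unadjusted p under 0.05): the 2 of Mapk14, the main one of Cx3cr1, and 1 each of Clasp2, Esr1, Pdcd10 and Rnf180. The last 4 are named here because they were called, after their values were seen. ENSMUST00000166734 of Clasp2, a gene for a microtubule-binding protein 6.33 Mb from Cx3cr1, was 6.31, 24.1, 26.2 and 13 CPM in WT p38+/+ mice 1 to 4 and 1.55, 1.12, 0.395 and 0.731 CPM in WT p38KO mice 1 to 4. It fell by 3.50 on the log2 scale (adjusted p = 0.00107 by limma), and by 3.48 in AD mice. It went from 7.89% to 0.365% of the reads of Clasp2, while the whole gene was 213.2, 252.0, 236.4 and 179.9 CPM in p38+/+ and 259.7, 261.3, 269.0 and 251.2 CPM in p38KO mice. The gene as a whole thus overlapped between the groups, with a log2 fold change of 0.25.

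ENSMUST00000137012, a processed transcript of the estrogen receptor gene Esr1, was 5.8e-07, 0.223, 6e-09 and 0 CPM in WT p38+/+ mice 1 to 4 and 2.22, 3.85, 3.21 and 2.99 CPM in WT p38KO mice 1 to 4. It rose in every p38KO mouse, by a log2 fold change of 2.68 (adjusted p = 0.00107 by limma), and by 2.48 in AD mice. CreERT2 is a fusion of Cre with part of an estrogen receptor, and reads of the fusion and of Esr1 cannot be told apart here. Esr1 as a whole was 11.8, 21.8, 11.8 and 16.5 CPM in p38+/+ and 24.4, 17.8, 27.6 and 20.2 CPM in p38KO mice, with overlap and a log2 fold change of 0.55.

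ENSMUST00000029424 of Pdcd10, a gene for an adaptor of the cerebral cavernous malformation complex, was 3.49, 2.64, 1.45 and 6.83 CPM in WT p38+/+ mice and at most 0.0696 CPM in WT p38KO mice. It fell by 2.82 on the log2 scale (adjusted p = 0.013 by limma), whereas in AD mice its log2 fold change was -0.48. That difference between backgrounds did not pass (adjusted p = 0.99967 for the interaction by limma). ENSMUST00000069686 of Rnf180, a membrane-bound ubiquitin ligase, was 8.28, 2.04, 2.82 and 4.62 CPM against 0.390, 0.0141, 0.336 and 0.0512 CPM. It fell by 2.70 (adjusted p = 0.0449 by limma), with a log2 fold change of -2.76 in AD mice. The calls on Clasp2 and Esr1 held in all 16 fits that left out 1 library, the one on Pdcd10 in 12 of them and the one on Rnf180 in 3. Of the 13 other alternatives, the call was made in 12 for Clasp2, 10 for Esr1, 8 for Pdcd10 and 6 for Rnf180. With only the 8 WT libraries, the adjusted p by limma was 0.0508 for Esr1, 0.115 for Pdcd10 and 0.168 for Rnf180.

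Beyond Cx3cr1 no gene was called, and those described of the 24 genes with the next smallest p-values are given as values only, at adjusted p-values of 0.99992 or more. Of the 25, 11 were higher and 14 lower in p38KO, 21 had groups that did not overlap (2.76% of all genes), and 4 lie on chromosome 9. The lack of overlap is read from the same 8 libraries as the p by which these genes were chosen. It is thus not further support for any of them. The AD mice, which share no library with this comparison, had the same direction in 19 of the 25, against 53.9% of all genes tested and 279 (61.3%) of the 455 genes with an unadjusted p under 0.05. In 11 of the 25 the AD comparison also had an unadjusted p under 0.05, each in the same direction (6.95% of all genes had one). The fit gives each gene the same spread in both backgrounds, so genes with a small spread tend to a small p in both, and this count is not independent of the choice.

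The largest differences among them were in scarce RNAs that were higher in p38KO. Lgi4, a secreted protein known from the myelination of peripheral nerve, was 8.62, 4.99, 4.78 and 4.11 CPM in p38+/+ and 20.8, 8.45, 24.9 and 18.9 CPM in p38KO mice. Only p38KO mouse 2 fell within the p38+/+ range. Its log2 fold change was 1.57 (SE 0.343), and in AD mice, where it was called, 2.77 (unadjusted p = 0.0233 for the interaction by limma). Tnfsf8, the ligand of CD30, was 3.41, 1.95, 2.13 and 1.35 CPM against 5.37, 13.7, 8.78 and 7.09 CPM, without overlap (log2 fold change 1.75, and 0.49 in AD mice). Adssl1, an enzyme of the purine nucleotide cycle, was 2.75, 4.38, 1.97 and 2.76 CPM against 17.3, 9.25, 12.3 and 8.60 CPM, also without overlap. Its log2 fold change was 1.83 in WT and -0.09 in AD mice (unadjusted p = 0.0072 for the interaction by limma).

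Other genes higher in p38KO were Heca, the counterpart of the fly gene headcase, at 10, 11.7, 8.88 and 8.16 CPM against 16.1, 14.5, 35.4 and 33.7 CPM (log2 fold change 1.22, and 1.12 in AD mice). Cited2, a transcriptional co-regulator, had a log2 fold change of 0.60, and Yaf2, a partner of polycomb proteins, one of 0.58. Both were positive in AD mice too, at 0.14 and 0.27. Dhrs13 (1.74), Gm20503 (1.70), Gm43593 (1.48) and 6030400A10Rik (1.27) were scarce RNAs, at 6.65 CPM or less in every WT library. Their p38+/+ means were 0.131 to 0.883 CPM per kilobase of exons. Such genes can pass the filter through their p38KO libraries, so their being higher there is not independent of it. Dhrs13 and 6030400A10Rik had opposite signs in AD mice, at -0.16 and -0.19.

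Lower in p38KO were Cd274 and Chuk, among others. Cd274, which encodes the checkpoint ligand PD-L1, was 23.1, 30.3, 25.6 and 17.9 CPM in p38+/+ and 11.4, 12.6, 15.7 and 11.4 CPM in p38KO mice. Chuk, the kinase IKKα of the NF-κB pathway, was 44.4, 89.5, 57.2 and 54.4 CPM against 35.1, 28.5, 36.8 and 41.9 CPM. Neither gene's groups overlapped, and the log2 fold changes were -0.89 for Cd274 and -0.74 for Chuk. In AD mice Cd274 went the other way, at 0.20 (unadjusted p = 0.0041 for the interaction by limma), and Chuk was at -0.25.

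Aggf1, an angiogenic factor, was 37.5, 41.6, 38.1 and 36.7 CPM against 23.1, 27.8, 24.2 and 26.4 CPM, a log2 fold change of -0.59 with very even groups. In AD mice it was -0.04 (unadjusted p = 0.0214 for the interaction by limma). Tmc7, a transmembrane channel-like gene, was 50.2, 45.3, 49.9 and 34.9 CPM against 28.5, 29.0, 29.3 and 24.6 CPM, without overlap, at -0.67 in WT and -0.55 in AD mice. Gxylt1, which adds xylose to Notch, was at -0.57 in WT and 0.19 in AD mice, and Morc2a, a factor of gene silencing, at -0.55 and -0.23. The remaining ones were H4c4 and H4c14, which encode histone H4, and 3 unnamed genes. Of these, Gm20632 (-1.25) is antisense to the histone gene H2ac19, Gm20628 (-1.51) overlaps the histone genes H2bc18 and H3c13, and Gm42798 (-1.40) overlaps Ppm1g, so their reads may be shared with those genes. Gm42798 was 4.13, 4.62, 5.16 and 3.53 CPM in p38+/+ and 0.651, 1.66, 1.15 and 2.22 CPM in p38KO mice, and went the other way in AD mice at 0.69 (unadjusted p = 0.00082 for the interaction by limma).

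Tested directly, the effect of p38KO did not differ between WT and AD mice for any gene after adjustment: 0 of 13027 genes were called, the smallest adjusted p was 0.99972, and 508 genes (3.9%) had an unadjusted interaction p under 0.05 in limma. Of the 25 genes, 9 did. All 25 were chosen by their p in WT mice, and the WT fold change is part of the interaction. Neither that count nor the interaction p of a single gene among the 25 is thus independent of the choice. The AD comparison itself called 5 genes (0.0384%), 4 of them lower (0.0307%): Cx3cr1, Mid1, Gm20628 and H2ac6, with Lgi4 the higher one. At an unadjusted p under 0.05 it had 2.34% of genes higher and 4.61% lower, and its groups did not overlap in 3.33%, with p38KO the lower in 1.98%. Groups that did not overlap in the same direction in both backgrounds were found for 13 genes (0.0998%), and 5 of these are histones (H4c4, H4c14, H4f16, H2ac6 and H3c7); the others include Cx3cr1 and Yaf2.

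**Figure D4:**
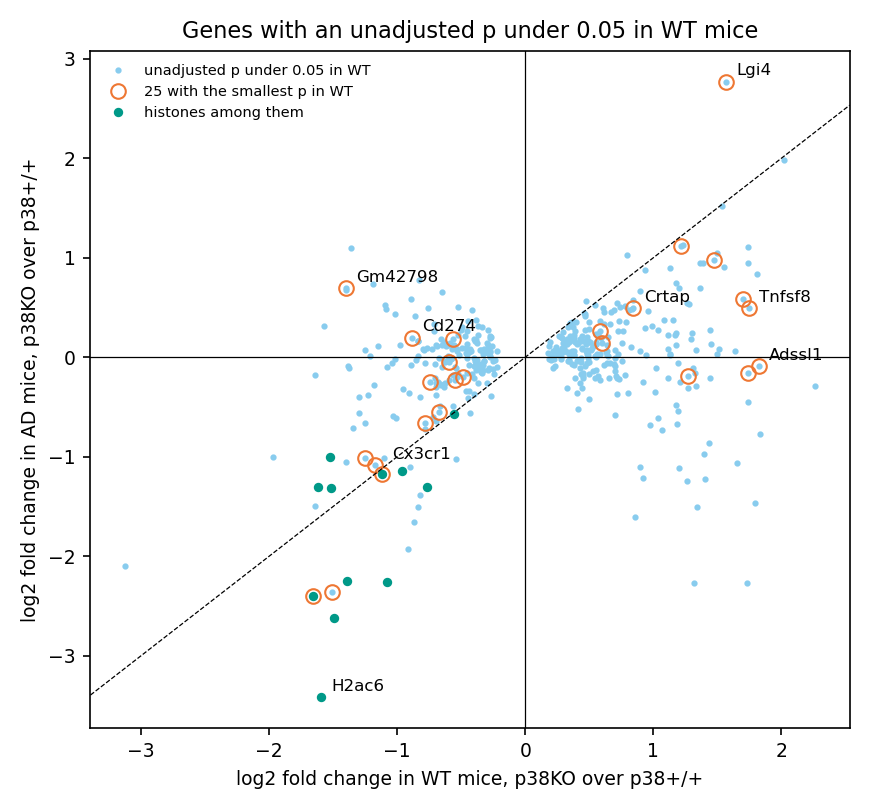
Log2 fold change with p38KO in AD mice against that in WT mice for the 455 genes with an unadjusted p under 0.05 in WT mice (the dashed line marks equal change). Cx3cr1 and the histones lie in the lower left, Lgi4 in the upper right, and genes such as Cd274 and Gm42798 on opposite sides of 0.

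The p38 pathway was taken by the roles of its members, and none of these genes was called. Of the 4 p38 kinases, Mapk11 (p38β) reached at most 1.09 CPM and Mapk13 (p38δ) 0.163 CPM, so neither was tested. Mapk12 (p38γ) was 0.942, 1.10, 0.683 and 1.03 CPM in p38+/+ and 1.30, 3.61, 3.60 and 2.58 CPM in p38KO mice. It was scarce, with a log2 fold change of 1.12 (unadjusted p = 0.0567 by limma), and 1.37 in AD mice. Its groups did not overlap, but Mapk12 passed the filter through its p38KO libraries, so that is not further support.

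Among 18 upstream kinases and scaffolds tested, 8 were above 0 and none had an unadjusted p under 0.05 (median log2 fold change -0.03, against 0.01 for all genes). Gadd45g, which activates MAP3K4, was 3.48, 8.28, 2.20 and 1.61 CPM against 3.99, 7.80, 5.54 and 5.30 CPM (log2 fold change 0.68), and Spag9, a scaffold also called JIP4, was at -0.30. The groups overlapped in both. The 7 downstream kinases lay between -0.27 and 0.27, with a median of 0.09 and 6 above 0 (0.02 and 4 without p38+/+ mouse 1 or 4). Mapkapk2, which encodes MK2, the main route from p38α to cytokine mRNAs, was 101.8, 170.1, 144.6 and 141.2 CPM against 158.0, 154.6, 169.2 and 133.6 CPM. These ranges overlapped, with a log2 fold change of 0.16. Mapkapk3, its close relative, was at 0.27 and Mknk2, which acts on the translation factor eIF4E, at 0.20.

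Of 23 tested substrates of p38 and MK2, 16 were above 0 (median 0.11; without p38+/+ mouse 4, 11 of 23 with a median of -0.004) and 1 had an unadjusted p under 0.05. That was Etv1, an ETS transcription factor, at 42.6, 40.4, 36.3 and 34.3 CPM against 47.7, 51.8, 44.3 and 45.8 CPM, without overlap (log2 fold change 0.30). Atf2, a classical p38 substrate, was at 0.26 with overlap. Of the 7 tested phosphatases that act on p38, 3 were above 0 and none had an unadjusted p under 0.05 (median -0.03). Dusp1, the best known of them, was 77.7, 31.1, 25.8 and 24.4 CPM against 36.9, 49.5, 9.07 and 25.4 CPM. Its spread exceeded any difference (log2 fold change -0.45, SE 0.483), and without p38KO mouse 3 the sign turned (0.031). In 14 genes of the other MAP kinase pathways, Map2k5, the ERK5 kinase, alone had an unadjusted p under 0.05 (log2 fold change 0.33, and -0.31 in AD mice).

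Messenger RNAs known to depend on p38α in activated macrophages were at similar levels. Of 16 tested, 12 were above 0 (median 0.08; without p38KO mouse 2, 8 of 16 with a median of 0.002) and 1 had an unadjusted p under 0.05. Socs3, a feedback inhibitor of cytokine signaling, was 52.8, 51.8, 51.5 and 29.9 CPM in p38+/+ and 59.0, 57.6, 62.2 and 55.7 CPM in p38KO mice, without overlap (log2 fold change 0.37). Tnf was 3.12, 5.35, 0 and 2.76 CPM against 2.20, 16.4, 1.15 and 4.94 CPM, so p38KO mouse 2 held the highest level while the other mice overlapped (log2 fold change 0.89, SE 0.709). Il1b had the same shape, at 1.67, 0.852, 2.20 and 0.257 CPM against 1.22, 5.13, 1.65 and 0.860 CPM, and Il6 was 8.55, 7.18, 11.3 and 11 CPM against 7.24, 8.88, 14.6 and 13.2 CPM. Plau, the urokinase, was at -0.38 and Tnfaip3, which encodes the NF-κB inhibitor A20, at -0.30, both with overlap. In 28 genes of NF-κB and toll-like receptor signaling, 10 were above 0 (median -0.03), and Chuk was the only one with an unadjusted p under 0.05.

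Replication-dependent histone genes were lower in WT p38KO microglia. These genes encode the histones packed onto newly copied DNA, and their mRNAs end in a stem-loop and mostly lack poly(A) tails. Of 45 in the table, 21 were tested; 19 of these had a log2 fold change below 0, and the median was -0.95 against 0.01 for all genes. An unadjusted p under 0.05 was found for 12, all lower, where 1.57% of all genes were lower, and in 7 the groups did not overlap (1.36% of all genes lower). No histone gene was called. H4c4 was 79.9, 54.5, 95.6 and 45.5 CPM in p38+/+ and 39.8, 37.1, 31.2 and 17.9 CPM in p38KO mice (log2 fold change -1.12). H4f16 was 95.9, 43.4, 63.4 and 46.1 CPM against 30.3, 28.1, 25.8 and 11 CPM (-1.39), and H3c6 was 11.7, 10.4, 12 and 5 CPM against 1.33, 4.77, 4.09 and 2.60 CPM (-1.52). In all of these the p38KO mice lay below every p38+/+ mouse.

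Within the histone list, H4c14 (-1.66) and H2ac6 (-1.60, named after its values were seen) were among the lowest, and the linker histone H1f4 was 107.8, 52.1, 82.1 and 41.0 CPM against 60.4, 82.1, 34.0 and 36.3 CPM, with overlap (-0.40). The list varied within the groups as well: set against the p38+/+ mean of each gene, its median on the log2 scale was 0.51, -0.23, 0.28 and -0.59 in p38+/+ mice 1 to 4 and -0.72, -0.59, -0.94 and -1.66 in p38KO mice 1 to 4. The lowest p38+/+ mouse and the highest p38KO mouse were thus level. Leaving out p38KO mouse 4 brought the list's median log2 fold change to -0.65, and leaving out p38KO mouse 2 to -1.21. In AD mice the median was -1.15, with 15 of the 21 genes lower at an unadjusted p under 0.05. Many histone genes are near-identical copies, so a read can be split between them, and single members are uncertain. Genes of the cell cycle and DNA replication, with which histone mRNAs normally go, were not lower: 21 of 29 were above 0 with a median of 0.14 (-0.35 in AD mice), which ran from 0.07 without p38KO mouse 2 to 0.28 without p38KO mouse 3. Ccne2 was 2.64, 3.90, 2.72 and 4.12 CPM against 4.90, 11, 4.37 and 5.93 CPM, without overlap (0.81). Ccne1 was also without overlap, at 1.20, but it was scarce, at 0.193 CPM per kilobase of exons in p38+/+ and 0.653 in p38KO mice. Such a gene can pass the filter through its p38KO libraries, so its lack of overlap is not further support. Both genes encode E-type cyclins of the entry into S phase.

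Interferon-stimulated genes were higher in p38KO, most of all in 1 mouse. Of 30 tested, 25 were above 0 with a median log2 fold change of 0.36 (0.11 in AD mice), 5 had an unadjusted p under 0.05, all higher, where 1.93% of all genes were higher, and 4 did not overlap (1.4% of all genes higher). None was called. Ifit1, which binds foreign RNA caps, was 2.17, 2.13, 2.20 and 0.964 CPM in p38+/+ and 3.01, 9.39, 4.52 and 3.94 CPM in p38KO mice (log2 fold change 1.20). Ifitm3, which blocks viral entry, was 7.25, 7.06, 16.3 and 8.55 CPM against 18.1, 49.4, 16.8 and 19.5 CPM (1.29). Ifi27l2a was 3.12, 3.23, 5.62 and 3.02 CPM against 6.26, 19.4, 5.83 and 8.46 CPM (1.18). The groups did not overlap in these 3 genes, and p38KO mouse 2 was the highest each time. The list's median per library, relative to the p38+/+ mean of each gene, was 1.22 in p38KO mouse 2, 0.13 to 0.27 in the other p38KO mice and -0.28 to 0.22 in p38+/+ mice. Without p38KO mouse 2 the median log2 fold change was 0.17, with 22 of 30 above 0. Bst2, or tetherin, which overlapped, was highest in p38KO mouse 3 (log2 fold change 0.72).

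The median level of antigen presentation genes was higher in each of the 4 p38KO mice than in any p38+/+ mouse, although none of these genes was called. Of 20 MHC class I and II genes tested, 18 were above 0 (median 0.23, and close to 0 in AD mice), 4 had an unadjusted p under 0.05, all higher (1.93% of all genes), and 3 did not overlap (1.4% of all genes higher). Without p38KO mouse 2 the median was 0.20. B2m, the light chain of class I, was 1800, 1352, 1601 and 1906 CPM in p38+/+ and 2135, 2358, 1912 and 2075 CPM in p38KO mice. H2-D1, a classical class I heavy chain, was 699.8, 798.7, 674.7 and 707.7 CPM against 907.9, 1022, 959.2 and 857.8 CPM. Both were without overlap, narrowly for B2m, at log2 fold changes of 0.36 and 0.38. The other 2 were H2-T23, a non-classical class I gene (0.29), and H2-Q6 (1.33), and H2 heavy chains are so alike that reads may be split between them. Relative to the p38+/+ mean of each gene, the list's median per library was -0.05 to 0.00 in p38+/+ mice and 0.20, 0.53, 0.21 and 0.19 in p38KO mice 1 to 4.

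**Figure D5:**
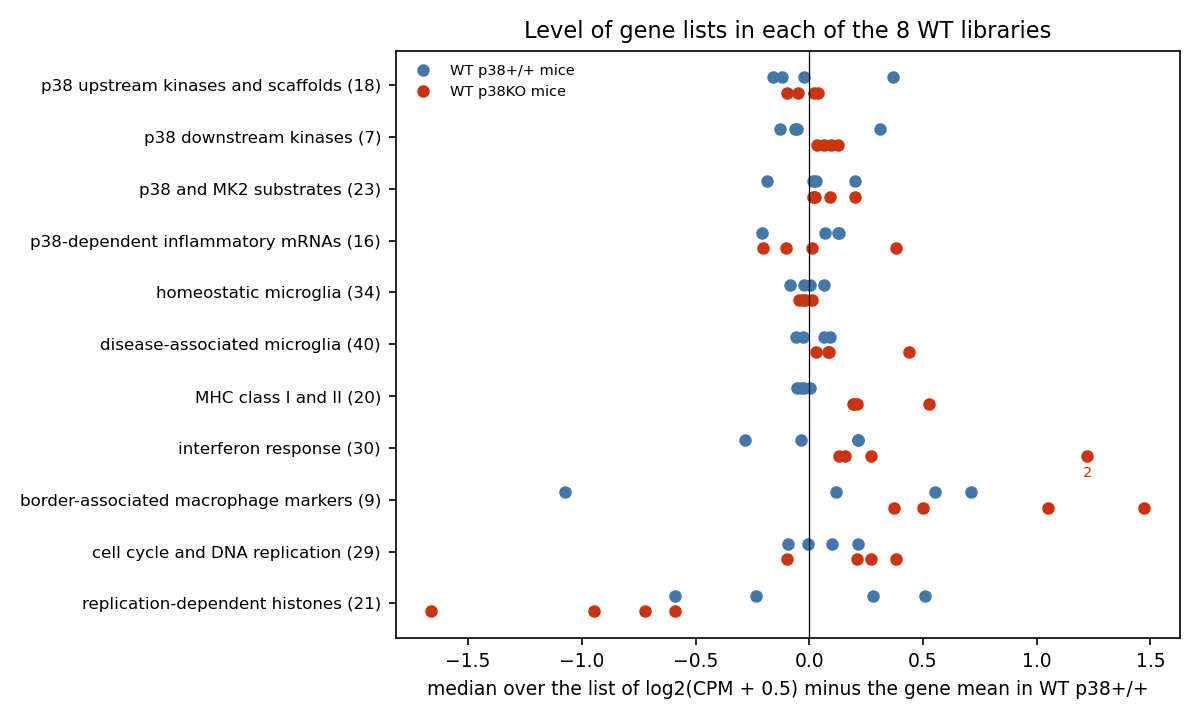
Median level of 11 gene lists in each WT library, as log2(CPM + 0.5) minus the gene's mean in WT p38+/+ mice (blue p38+/+, red p38KO; the number tested in each list in brackets). The histone list lies lowest in p38KO, MHC genes lie at 0.19 to 0.53 in p38KO mice, and p38KO mouse 2, marked, stands out for interferon response at 1.22.

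Microglial state markers hardly differed. Of 34 homeostatic genes, 17 were above 0 and the median was close to 0; 2 had an unadjusted p under 0.05, both lower, Cx3cr1 among them. Csf1r, the receptor microglia need to survive, had a log2 fold change of -0.08. Of 40 tested disease-associated genes, 27 were above 0 (median 0.10, 0.06 without p38KO mouse 2 and 0.17 without p38KO mouse 1, and -0.02 in AD mice) and 3 had an unadjusted p under 0.05, all higher: B2m, H2-D1 and Cd52. Cd52, a small surface glycoprotein, was 69.4, 57.4, 70 and 65.5 CPM in p38+/+ and 91.9, 118.6, 90.1 and 79.4 CPM in p38KO mice, without overlap (0.52). Apoe, which carries lipids, was 263, 670.6, 223.1 and 141.2 CPM against 625.6, 425.9, 315.6 and 332.7 CPM, with overlap (0.58).

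Markers of border-associated macrophages, which also express CD11b and Cx3cr1, were low but on the higher side in p38KO. The sort for P2ry12, which these cells largely lack, would leave most of them out. All 9 were tested and lay above 0, with a median of 0.78 (0.03 in AD mice), 2 with an unadjusted p under 0.05 (1.93% of all genes higher) and 1 without overlap (1.4%). Their summed level was 23.6 to 78.2 CPM in p38+/+ and 55.0 to 123 CPM in p38KO libraries. Without p38+/+ mouse 4, or without p38KO mouse 1, 7 of the 9 were above 0 with a median of 0.60. Relative to the p38+/+ mean of each gene, the list's median was -1.07 in p38+/+ mouse 4. It was 0.12 to 0.71 in the other p38+/+ mice and 0.37 to 1.47 in p38KO mice, with overlap. Ms4a7 was 0.580, 3.29, 3.19 and 2.44 CPM in p38+/+ and 4.23, 5.35, 2.73 and 5.8 CPM in p38KO mice, with overlap (log2 fold change 0.92, and -1.22 in AD mice). Folr2 was 0.840, 0.0737, 0.867 and 1.24 CPM against 1.47, 3.53, 1.68 and 2.06 CPM, without overlap (1.15). Among p38+/+ mice only mouse 4 reached 1 CPM. Folr2 thus passed the filter through the p38KO mice, and its lack of overlap is not independent of that filter. The haemoglobin receptor Cd163 was 3.33, 12.5, 0 and 0.0643 CPM against 15.8, 6.65, 4.82 and 3.8 CPM, with overlap (1.89), and the platelet-type chemokine Pf4 was at 0.78. These markers shared their direction with the MHC and interferon lists but not the order of the mice. Their median was highest in p38KO mouse 1 (1.47), and that of the MHC and interferon lists in p38KO mouse 2 (0.53 and 1.22). The part of these markers in those lists was not tested.

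Metabolic lists showed small differences. Of 30 genes of oxidative phosphorylation, 25 were above 0 (median 0.11, and close to 0 in AD mice). An unadjusted p under 0.05 was found for 2, both higher (1.93% of all genes higher). Cycs, which encodes cytochrome c, was 27.7, 15.3, 21.5 and 25.8 CPM in p38+/+ and 28.5, 28.2, 28.1 and 33.5 CPM in p38KO mice, without overlap (0.41), and Cox6c was at 0.38. In this list the low level was that of p38+/+ mouse 2 (-0.37 relative to the p38+/+ mean, against 0.07 to 0.15 in the other p38+/+ mice), and without that mouse the list's median log2 fold change was -0.006, with 14 of 30 above 0. Of 24 genes of cholesterol and lipid handling, 12 were above 0 (median close to 0). In this list 4 had an unadjusted p under 0.05, of which 3 were lower (1.57% of all genes lower). In 3 genes of the list the p38KO mice lay below every p38+/+ mouse (1.36% of all genes). Lss and Scd2, genes of lipid synthesis, were among the lower ones. Lss, lanosterol synthase, was 10.1, 21.5, 17.4 and 11.2 CPM against 5.78, 7.80, 6.62 and 8.74 CPM (-0.96). Scd2, a fatty acid desaturase, was at -0.34. Neither overlapped, and in AD mice they were at -0.32 and -0.14.

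Of 27 transcription factors of microglia and related lineages, 18 were above 0 (median 0.07; 0.15 without p38+/+ mouse 2). Maf, a macrophage identity factor, was 191.0, 154.1, 160.3 and 149.0 CPM in p38+/+ and 198.8, 207.3, 209.6 and 208.2 CPM in p38KO mice, without overlap (log2 fold change 0.34, and 0.31 in AD mice). Klf7 was 40.4, 58.1, 46.9 and 44.0 CPM against 34.7, 33.4, 33.7 and 38.5 CPM, without overlap at -0.42, and in AD mice it was at 0.47 (unadjusted p = 0.0019 for the interaction by limma). Klf13 was higher with overlap (0.44). In the inflammasome list, 6 of 11 were above 0 and Aim2, a sensor of DNA in the cytosol, was 37.8, 54.2, 39.6 and 38.8 CPM against 32.5, 28.2, 27.7 and 33.7 CPM, without overlap (-0.46, and 0.04 in AD mice). Mid1, a ubiquitin ligase of microtubules that was known from earlier results of these data, was 53.6, 54.2, 39.1 and 40.3 CPM against 25.1, 47.2, 25.3 and 11.5 CPM. Its groups overlapped through p38KO mouse 2, and its log2 fold change was -0.91 in WT and -1.93 in AD mice (unadjusted p = 0.023 for the interaction by limma).

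The other lists stayed near the level of all genes, although the ribosomal protein list turned to -0.09, with 11 of 33 above 0 in place of 22, without p38+/+ mouse 2, and phagocytosis and purinergic genes came to 0.03 without it. Phagocytosis genes had a median log2 fold change of 0.08, ribosomal proteins 0.07, purinergic receptors 0.09, TGF-β signaling 0.04 and glycolysis 0.02. Together with the lists of lysosome, chemokine, immediate early and unfolded protein response genes, which lay between -0.01 and 0.04, they held at most 2 genes each with an unadjusted p under 0.05. Markers of other cell types were often too low to test, though less so those of astrocytes. Some lists were largely absent: the table held 4 of 14 listed markers of monocytes and granulocytes and 8 of 17 of lymphocytes. Of those in the table, 1 of 10 neuronal, 9 of 10 astrocyte and 5 of 11 oligodendrocyte markers passed the filter. So did 2 of 11 endothelial and mural, 3 of 4 monocyte and granulocyte and 2 of 8 lymphocyte markers. Of all these, the B cell gene Cd79b alone had an unadjusted p under 0.05 (log2 fold change 0.50).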

How the data were processed

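The paired-end reads were aligned by the authors with STAR (mm10). Quantification used Partek Flow 10.0.22.0828 and Ensembl annotation. The authors deposited CPM (counts scaled to 1e+06 assigned reads a library), with 0.0001 added to every value, in one table of genes and one of transcripts. The 0.0001 was subtracted here. Counts were not used: 73.5 to 80.0% of low values were whole multiples of 1 read (tolerance 0.05). The deposited CPM carry no interval; the 3-read floor covers counting error only. The labels call the hemispheres fixed, while the methods describe fixation of the other hemisphere only.

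A gene or transcript was kept where 4 or more of the 8 WT libraries reached 1 CPM. An RNA that was high in 1 group only could thus pass through that group alone. Values were taken as log2(CPM + 0.5), so fold changes of low genes are understated. All 16 libraries were fitted as 4 groups with limma 3.58.1 (R 4.3.3; trended empirical Bayes, two-sided, Benjamini-Hochberg adjustment), and a gene was called at an adjusted p under 0.05; the spread is thus shared with AD mice. Single values were compared by exact permutation over mice. The test was checked on simulated data. Python 3.11.15 was used for tables (pandas 2.3.3 with numpy 2.4.6) and figures (matplotlib 3.10.9). Coordinates are of GENCODE M21 (GRCm38), in which 20240 of the 20267 genes were found, 507 of them by gene ID only. The position of the loxP sites is not given in the sources used here.

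The comparison, the 37 gene lists and the rule for named genes were chosen with earlier results of these data known. The rule names Mapk14, Cx3cr1, the 25 genes of smallest p, up to 4 members of each list by p and 2 by level, genes within 1 Mb of Cx3cr1, Lgi4, Mid1 and the p38 pathway. The alternatives were other pseudocounts, filters and scalings, array weights, only the WT libraries, leaving out AD p38KO mice 1 and 4 or each library in turn, a covariate for sex or for the 3 S0 libraries (so marked in their labels), and the animal number as a block. Some genes that the rule names are not reported here.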

Additional observations from a re-analysis of the deposited data

Results flagged for a closer look

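Single libraries stood away from the other 3 of their group in 19 of 204 groups of 4 examined (9.31%), by the ratio of the gap to the range. For independent, normally distributed values chance gives about 1 in 20. CPM need not be so distributed, and some of the groups repeat the same signal, so no excess is read from this share. The clearest single libraries were those for the haemoglobins. Hbb-bs was 149 CPM in WT p38KO mouse 3 against at most 13.9 CPM in the other p38KO mice. Hba-a1 was 78.2 CPM there against at most 10.4 CPM, and 1.33 CPM in WT p38+/+ mouse 1 against 0 in the others. The summed red blood cell markers were 363.7 CPM in p38KO mouse 3 and 3.99 CPM in p38+/+ mouse 1, against at most 40.6 and 0.257 CPM in the rest of their groups.

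p38KO mouse 2 was highest for Ifitm3 (49.4 CPM, others at most 19.5) and for H2-T23 (206.7 CPM, others at most 173.5). p38+/+ mouse 3 was highest for Ifitm3 (16.3 CPM), Ifi27l2a (5.62 CPM) and 6030400A10Rik (2.05 CPM). p38+/+ mouse 1 was highest for Dusp1 (77.7 CPM, others at most 31.1) and lowest for Glb1 (105.8 CPM, others at least 138.3). p38+/+ mouse 4 was lowest for Socs3 (29.9 CPM, others at least 51.5) and Ifit1 (0.964 CPM), and p38+/+ mouse 2 was highest for Aim2 (54.2 CPM). p38KO mouse 1 was lowest for Tnfaip3 (65.9 CPM). p38KO mouse 4 was highest for Cycs (33.5 CPM) and the main Cx3cr1 transcript ENSMUST00000177637 (3535 CPM), and lowest for 6030400A10Rik (2.58 CPM).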

How the results depend on the processing

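Cx3cr1 was called in all 29 alternatives, at -1.21 to -1.12 on the log2 scale when single libraries were left out, and isoform 1 of Mapk14 was called in all of them. The number of genes called was 1 throughout, except 2 with no filter (with Rhobtb3), 3 without AD p38KO mice 1 and 4 (with Adssl1 and H2ac6) and 7 in the replicate block below. The interaction with background called 4 genes with no filter. Genes at an unadjusted p under 0.05 numbered 803 with no filter, 699 without AD p38KO mice 1 and 4, 732 with array weights, and 370 to 612 leaving out single libraries.

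Transcripts called were 4 with a pseudocount of 1 CPM, 4 with a filter of 5 CPM, 4 with only the 8 WT libraries, 14 without AD p38KO mice 1 and 4, 11 with array weights, and 4 to 12 leaving out single libraries. Of the Mapk14 transcripts, 1 was called with a pseudocount of 1 CPM, no filter, median-of-ratios scaling or a covariate for the S0 libraries, and 1 to 3 leaving out single libraries. The call lost was that of ENSMUST00000114752: 0.76 (adjusted p = 0.0537, limma) with a pseudocount of 1 CPM, 0.76 (0.0998) with no filter, 0.77 (0.0893) with median-of-ratios scaling, 0.76 (0.234) with only WT libraries and 0.77 (0.103) with the S0 covariate, and 0.69 to 0.83 leaving out single libraries (adjusted p 0.0261 to 0.243). The difference in genes detected ran from 146 to 460.7 genes, and passed only without p38+/+ mouse 2 (exact permutation p = 0.0286). Dusp1 turned from -0.45 to 0.031 without p38KO mouse 3, and ran from -0.76 to 0.031. Apart from the main results, 2874 values were compared, for single genes and transcripts and for list medians and list counts. Of these, 2821 stayed the same, by direction and call for genes and transcripts and by a set margin for lists. The main results were the numbers called, Cx3cr1, the called Mapk14 transcripts and genes detected. Of their 238 values, 182 stayed the same. The cause was not tested in any of these.

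Same-numbered WT mice share only a number: their deviations from the group means correlated at 0.188, -0.05, 0.0812 and 0.14. With the replicate block, all 16 libraries gave 1 gene and 6 transcripts called. The 8 WT libraries alone gave 7 genes, 734 genes at an unadjusted p under 0.05, 2 transcripts and 1 Mapk14 transcript called, with ENSMUST00000114752 at 0.76 (adjusted p = 0.198, limma).

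Depth of 12.3 to 16.4 reads per CPM limits what can be said of RNAs near 1 CPM, and 4 mice a group limit small differences: the median SE of a log2 fold change was 0.240.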

Other observations

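The genes with the largest fold changes were not those with the smallest p-values, and were looked up after the values were seen. Colec12, a scavenger receptor of the collectin family, had the most negative log2 fold change, -3.13 (unadjusted p = 0.00963 by limma, not called). It was 46.2, 29.5, 0.911 and 28.5 CPM in WT p38+/+ mice 1 to 4 and 2.12, 0.722, 2.37 and 0.573 CPM in WT p38KO mice 1 to 4, so p38+/+ mouse 3 lay within the p38KO values. In AD mice its log2 fold change was -2.10. Gm4735 had the most positive one, 2.27, from 137.0 and 123.0 CPM in p38KO mice 1 and 3 against 3.05 to 9.98 CPM in the other 6 mice. Ablim1, an actin-binding protein, was at 2.02 in WT and 1.98 in AD mice. It was 0.725, 2.25, 0.228 and 0 CPM in p38+/+ and 13.4, 2.89, 7.77 and 0.358 CPM in p38KO mice, again high in mice 1 and 3.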
